A study of Homo sapiens with 8 samples.

Results

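The 9 genes described here write, copy or remove methyl groups on cytosine in DNA: the methyltransferases DNMT1, DNMT3A and DNMT3B, the catalytically inactive cofactor DNMT3L, the DNMT1 partner UHRF1, the oxidases TET1, TET2 and TET3, and the DNA glycosylase TDG. They were taken by symbol from a table of 35940 gene symbols, all 9 were found, and 8 passed the filter on low values; DNMT3L did not. The cells were of ESI017, a single human embryonic stem cell line of wild type genotype, driven towards a posterior neural fate. All groups shared the same start: 24 h in mTeSR1 with ROCK inhibitor after plating at 30000 cells per cm2, then N2B27 with SB (10 µM) and LDN (100 nM), and WNT3A at 300 ng/mL from 34 h. RNA was collected at 34 h, the hour of the WNT3A addition (the labels do not say in words whether before or after it), and at 42, 50 and 72 h (8, 16 and 38 h after it), with 2 libraries at each of the 4 time points. Cells without WNT3A were not analysed here, so the effect of WNT3A and that of elapsed time cannot be told apart.

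DNMT3A and DNMT3B set methylation on unmethylated CpG sites, and DNMT3L, which has no catalytic activity, stimulates both. After DNA replication UHRF1 binds hemimethylated CpG and recruits DNMT1, which restores the mark on the daughter strand. TET enzymes oxidise 5-methylcytosine stepwise in a reaction that uses oxygen, iron and 2-oxoglutarate; TDG excises the most oxidised forms, and base excision repair puts back an unmodified cytosine. Pluripotent human cells are known for high DNMT3B, and DNMT3L is known from germ cells and from the naive form of pluripotency. Only transcript levels were measured, not protein, enzyme activity or DNA methylation.

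Promoter sequences are shown for UHRF1, DNMT1 and TET3, whose transcripts were higher at 72 h than at 34 h, and for DNMT3B, whose transcript was lower. Each is 300 bases of RefSeq sequence on GRCh38.p14, from 250 bases before to 50 bases after an annotated start site, 5′ to 3′ on the gene's strand; capitals mark a match to a core motif of the E2F factors, GCGGGAA or GCGCGAA, on either strand. The windows are chr19:4909251-4909550 (UHRF1, plus strand), chr19:10194904-10195203 (DNMT1, minus strand), chr2:73984660-73984959 (TET3, plus strand) and chr20:32779602-32779901 (DNMT3B, plus strand).
UHRF1: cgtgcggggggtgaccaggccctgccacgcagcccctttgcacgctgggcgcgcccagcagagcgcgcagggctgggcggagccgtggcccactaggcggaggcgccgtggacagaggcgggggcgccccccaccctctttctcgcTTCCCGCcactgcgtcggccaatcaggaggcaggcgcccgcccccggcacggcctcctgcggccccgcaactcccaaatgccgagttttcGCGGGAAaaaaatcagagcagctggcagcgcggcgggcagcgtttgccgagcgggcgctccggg
DNMT1: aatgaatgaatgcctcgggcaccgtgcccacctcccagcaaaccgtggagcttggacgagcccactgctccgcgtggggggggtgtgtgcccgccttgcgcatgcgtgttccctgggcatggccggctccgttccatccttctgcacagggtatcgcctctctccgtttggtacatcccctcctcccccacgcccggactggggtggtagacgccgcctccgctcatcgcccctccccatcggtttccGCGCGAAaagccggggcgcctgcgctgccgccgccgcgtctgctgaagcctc
TET3: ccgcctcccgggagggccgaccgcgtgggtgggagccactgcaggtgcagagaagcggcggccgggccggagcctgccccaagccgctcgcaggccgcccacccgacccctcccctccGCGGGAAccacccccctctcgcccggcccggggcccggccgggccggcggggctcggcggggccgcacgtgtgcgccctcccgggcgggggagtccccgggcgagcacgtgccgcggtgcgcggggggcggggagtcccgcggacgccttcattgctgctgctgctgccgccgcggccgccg
DNMT3B: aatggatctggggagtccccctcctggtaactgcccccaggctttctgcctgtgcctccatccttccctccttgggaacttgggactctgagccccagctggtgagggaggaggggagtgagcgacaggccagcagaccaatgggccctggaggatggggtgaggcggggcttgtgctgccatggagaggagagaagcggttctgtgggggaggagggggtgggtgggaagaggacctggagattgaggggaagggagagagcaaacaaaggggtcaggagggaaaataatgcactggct

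The UHRF1 window held 2 matches, with first bases 104 and 14 bases before the start site, and the DNMT1 window 1 match that began 2 bases before it. The TET3 window held 1 match 132 bases before it. The DNMT3B window held none. For each gene the window nearest its GENCODE start is shown. UHRF1 has 3 RefSeq windows, of which 2 held a match, TET3 has 2, of which 1 did, and DNMT1 and DNMT3B have 1 each. The motif was chosen with the sequences in view, and 8.54% of the 35116 RefSeq windows of this length held at least 1 match. Of the 9 genes 8 had a window and DNMT3L had none; DNMT3A, TET1, TET2 and TDG had no match in the window nearest their gene start. A core motif of the TCF/LEF factors of the WNT pathway, CTTTGAA or CTTTGAT on either strand, was found in 1 of these 8 windows, that of TET2, and in 6.86% of all windows. The printed UHRF1, DNMT1, TET3 and DNMT3B windows held 36, 30, 45 and 3 CG dinucleotides, against a median of 14 over all windows. Both E2F core motifs contain CG, so the share of 8.54% over all windows is not a base rate for windows with these CG counts. The share among windows of similar CG count was not computed. The start sites lay 6421, 36333 and 17467 bases inside the GENCODE 29 genes UHRF1, DNMT1 and DNMT3B and 1494 bases before TET3. The sequence at the GENCODE start of these genes was therefore not scanned. For DNMT3B the lack of a match and the low CG count describe only this internal window. A match describes letters only, and no binding was measured.

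Levels are TPM, shares of a library corrected for transcript length, as the authors deposited them. The depth is unknown, so no counting interval was computed. Each library had 13860 to 14004 genes at 1 TPM or more, with 8.70% to 11.2% of its TPM in mitochondrial genes. The labels give the cell type as human pluripotent stem cells. At 34 h POU5F1, a core pluripotency factor, stood at 1165 and 1152 TPM, and 7 pluripotency markers summed to a mean of 3345 TPM. That sum was 2857, 2510 and 1651 TPM at 42, 50 and 72 h, with POU5F1 at 354 and 388 TPM in the 72 h pair. At 72 h against 34 h limma called 4 of the 7 lower (POU5F1, TDGF1, DPPA4, ZFP42) and none higher, against 11.3% and 12.7% of all tested genes. LIN28A, the largest part of the sum by then, went from 908 and 897 TPM to 1078 and 970 TPM, and PRDM14 from 23.7 and 20.4 TPM to 28.8 and 24.5 TPM. Neither was called at 72 h. In between PRDM14 was lower, at 7.28 and 8.56 TPM in the 42 h pair and 11.9 and 9.64 TPM in the 50 h pair. At 50 h against 34 h 1 of the 7 was called higher and 4 lower, against 3.52% and 2.74% of all tested genes. NANOG, another core factor, was low already at 34 h, at 2.46 and 1.59 TPM. The 5 neural progenitor markers summed to 241, 196, 259 and 415 TPM. Most of that sum was SOX2, which pluripotent cells also express (224 and 211 TPM at first, 348 and 333 TPM at 72 h), and SOX3 was not called. SOX1, an early neural factor, went from 1.63 and 2.14 TPM to 56.5 and 45.2 TPM, while PAX6 reached 4.01 and 3.59 TPM and HES5 was listed at 0 in both 72 h libraries. Markers of other cells had low sums: 9 mesoderm and endoderm genes summed to 14.8, 21.2, 17.3 and 3.95 TPM with SOX17 listed at 0 in all 8 libraries, and 5 neural crest genes to 7.71, 5.06, 5.97 and 13.2 TPM. The members of the mesoderm and endoderm list moved in opposite directions. TBXT, a primitive streak factor, was at 0.831 and 1.16 TPM in the 34 h libraries, 11.4 and 7.92 TPM in those of 42 h and 1.62 and 1.87 TPM in those of 72 h. Its log2 rise was 2.40 at 42 h (limma adjusted p = 0.00149) and 2.20 at 50 h (0.00147). MIXL1 rose by 1.25 at 50 h (0.0232), to 1.47 and 1.81 TPM, and EOMES reached 1.33 and 1.21 TPM at 42 h. FOXA2 fell by 1.02 at 50 h (0.0125) and by 2.99 at 72 h (1.91e-05), from 11.9 and 13.4 TPM at first to 0.575 and 0.866 TPM. The part of these cells in the changes at 42 and 50 h below was not tested. The neural crest genes also moved in opposite directions. At 72 h 2 of the 4 tested were called higher and 1 lower, against 12.7% and 11.3% of all tested genes. From 34 to 72 h SNAI2 went from 0.339 and 0.360 TPM to 6.99 and 5.19 TPM, and PAX3 from 0.269 and 0 TPM to 4.81 and 4.24 TPM. FOXD3 went from 4.65 and 4.48 TPM to 0 in both libraries. The 5 amnion and trophoblast genes summed to 38.2 TPM at 34 h and 6.24 TPM at 72 h, of which KRT7 was nearly all. The 6 naive pluripotency markers summed to 5.41 TPM at 34 h and 2.48 TPM at 72 h, with KLF17 listed at 0 throughout. The replicates are independent biological replicates of the same protocol, per the series' design text, and their number is also given as a batch in the labels.

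Among the genes that set new methylation, DNMT3B fell in steps and DNMT3A did not pass the test at any time. DNMT3B (ENSG00000088305, chr20:32762385-32809356, plus strand, GENCODE 29 on GRCh38) stood at 558 and 452 TPM in the 34 h pair, 356 and 332 TPM in the 42 h pair, 337 and 310 TPM in the 50 h pair and 207 and 216 TPM in the 72 h pair, with replicate 1 given first here and below. Every later library lay below both 34 h libraries, and both 72 h libraries lay below all others. At 34 h DNMT3B was higher than 98.5% and 98.2% of the tested genes, and at 72 h it was still higher than 95.9% and 96.1%. On the log2(TPM + 1) scale DNMT3B fell by 0.55 ± 0.11 (SE) at 42 h (limma adjusted p = 0.0430), by 0.63 ± 0.11 at 50 h (adjusted p = 0.0128) and by 1.24 ± 0.11 at 72 h (95% interval -1.49 to -0.99, adjusted p = 0.000156), each against 34 h. The change at 72 h was -1.42 within replicate 1 and -1.06 within replicate 2, and the mean of 212 ± 6.55 TPM (SD, n = 2) was 0.420 of the 505 ± 75.1 TPM (SD, n = 2) at 34 h.

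The step of DNMT3B from 42 to 50 h was small, with a log2 change of -0.09 that did not pass the test (limma adjusted p = 0.867), and the step from 50 to 72 h was a fall of 0.61 ± 0.11 (adjusted p = 0.0149). Within each replicate DNMT3B went down at all 3 steps, as did 601 of the 14908 tested genes (4.03%). The 72 h change against 34 h passed in 18 of 18 alternative analyses, with adjusted p between 5.79e-05 and 0.00270. The 42 h change passed in 7 of 18: among the fits without 1 library it was lost without 34 h replicate 1 (adjusted p = 0.197), without 42 h replicate 1 (0.135) or replicate 2 (0.248), without either 50 h library (0.0517 and 0.0516) and without either 72 h library (0.0802 and 0.0794). The 50 h change was lost without 34 h replicate 1 (0.0673) or 50 h replicate 2 (0.0645), and the step from 50 to 72 h without 50 h replicate 1 (0.0665) or either 72 h library (0.108 and 0.0692). In bulk RNA, fewer cells with a transcript and less of it per cell cannot be told apart; the pluripotency marker sum went down over the same hours, although not all 7 of its genes did, and its part in the fall of DNMT3B was not tested.

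DNMT3A (ENSG00000119772, chr2:25227855-25342590, minus strand) stood at 98.8 and 66.5 TPM in the 34 h pair, 108 and 81.1 TPM in the 42 h pair, 110 and 80.5 TPM in the 50 h pair and 86.0 and 87.4 TPM in the 72 h pair. The replicates were further apart than the time points: replicate 1 was higher by 0.56, 0.41 and 0.44 on the log2 scale at 34, 42 and 50 h, and the difference was -0.02 at 72 h. Of the tested genes, 217 (1.46%) had replicate 1 above replicate 2 by at least 0.3 at each of the first 3 time points, a threshold chosen after the values were seen, and DNMT3A was the only one of the 8 tested genes among them. The change of DNMT3A at 72 h was 0.10 ± 0.22 on the log2 scale (95% interval -0.41 to 0.60, limma adjusted p = 0.792), with -0.20 within replicate 1 and 0.39 within replicate 2. That interval holds a rise and a fall of moderate size, so the data do not show that DNMT3A stayed level.

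DNMT3L (ENSG00000142182, chr21:44246339-44262216, minus strand) was listed at 0.134 and 0.169 TPM in the 34 h pair, 0.115 and 0 in the 42 h pair, 0 and 0.0772 in the 50 h pair and 0 in both 72 h libraries. It never neared the filter of 1 TPM and was not tested.

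**Figure D1:**
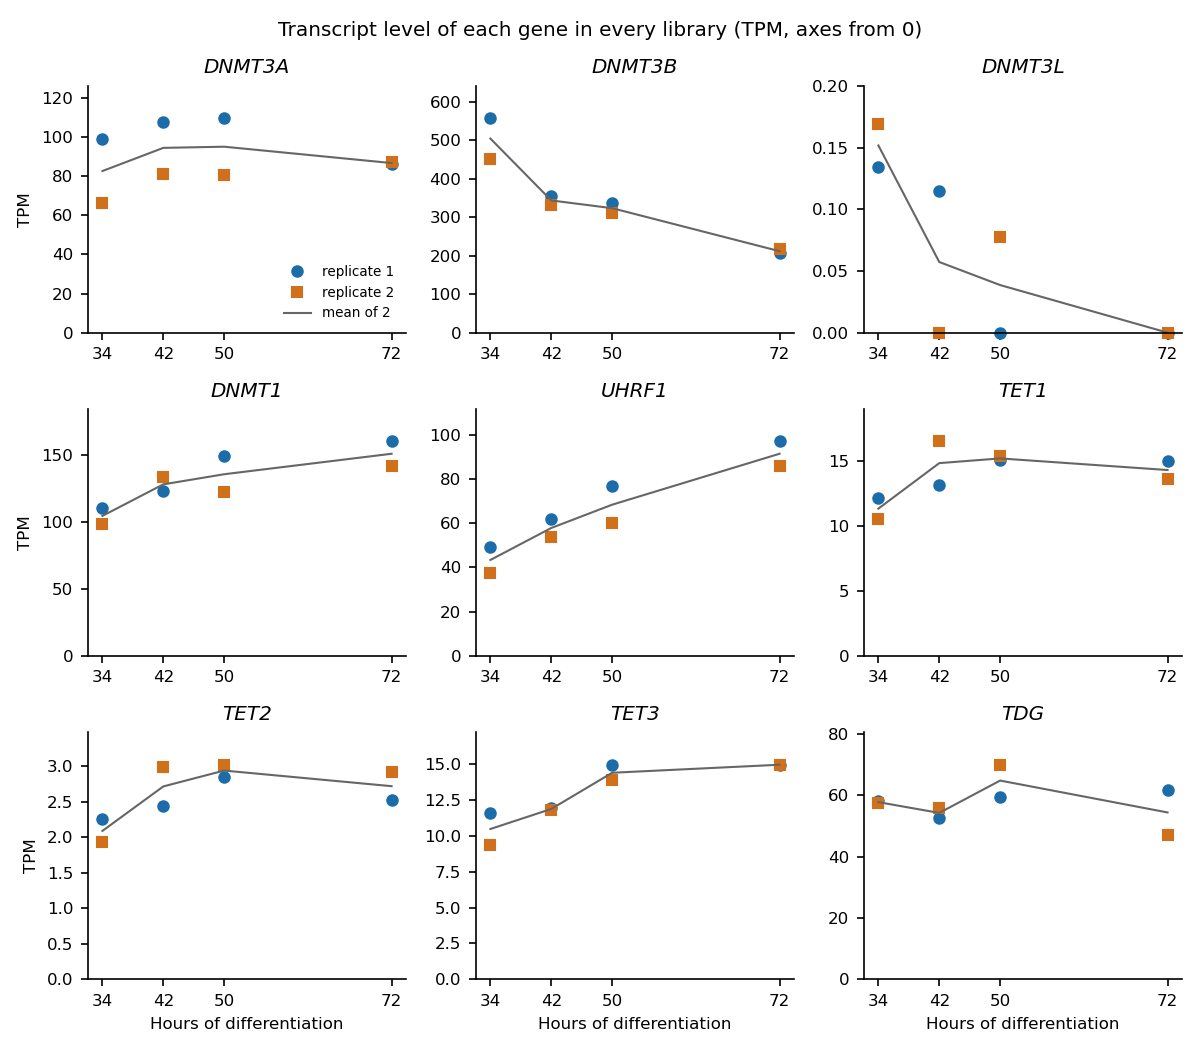
Transcript level in TPM (vertical axes, each from 0 on its own scale) of the 9 genes against hours of differentiation, with a circle for replicate 1, a square for replicate 2 and a line through the mean of the 2 libraries. DNMT3B goes from 558 and 452 TPM to 207 and 216 TPM, UHRF1 from 49.2 and 37.5 TPM to 96.9 and 85.8 TPM, and the DNMT3A replicates lie apart until 72 h.

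Both genes of methylation maintenance were higher at 72 h. UHRF1 (ENSG00000276043, chr19:4903080-4962154, plus strand), the reader of hemimethylated CpG, stood at 49.2 and 37.5 TPM in the 34 h pair, 61.8 and 53.8 TPM in the 42 h pair, 76.7 and 59.9 TPM in the 50 h pair and 96.9 and 85.8 TPM in the 72 h pair. It went up at all 3 steps within each replicate, as did 599 of the tested genes (4.02%), TET3 among them. UHRF1 rose by 1.07 ± 0.17 on the log2 scale at 72 h against 34 h (95% interval 0.68 to 1.46, limma adjusted p = 0.00305), by 0.96 within replicate 1 and 1.17 within replicate 2, and this call held in 18 of 18 alternatives. The mean of 91.3 ± 7.89 TPM (SD, n = 2) was 2.11 times the 43.3 ± 8.27 TPM (SD, n = 2) at 34 h. At 50 h the change was 0.65 ± 0.17 (adjusted p = 0.0644), and with the replicate number as a block it passed (adjusted p = 0.0108). At 42 h UHRF1 was at 0.42 ± 0.17 above 34 h (adjusted p = 0.318).

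DNMT1 (ENSG00000130816, chr19:10133345-10231286, minus strand), the maintenance methyltransferase, stood at 111 and 98.9 TPM in the 34 h pair, 123 and 134 TPM in the 42 h pair, 149 and 122 TPM in the 50 h pair and 161 and 142 TPM in the 72 h pair. All 6 later libraries lay above both 34 h libraries. DNMT1 rose by 0.53 ± 0.12 on the log2 scale at 72 h (95% interval 0.24 to 0.81, limma adjusted p = 0.0178), and by 0.53 within replicate 1 and 0.52 within replicate 2. The call was lost without 34 h replicate 2 (adjusted p = 0.106) and without 72 h replicate 1 (0.114). The changes at 42 h (0.29, adjusted p = 0.343) and 50 h (0.37 ± 0.12, adjusted p = 0.136) did not pass. S1PR2 overlaps DNMT1 on the same strand and was at 5.53 to 7.50 TPM. Beside these genes, which are known to be made mostly in S phase, 17 S phase genes were read. Their summed level had means of 2168, 2365, 2460 and 2179 TPM at the 4 time points. At 72 h 5 of the 17 rose and 2 fell, against 12.7% of all tested genes higher and 11.3% lower. The 10 genes of G2 and M phase summed to 1470, 1516, 1657 and 1672 TPM. The part of either list in the changes of UHRF1 and DNMT1 was not tested.

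The 3 TET oxidases were all higher in each of the 6 later libraries than in both 34 h libraries, and TET3 passed the test at 72 h. TET1 (ENSG00000138336, chr10:68560656-68694482, plus strand) stood at 12.1 and 10.5 TPM in the 34 h pair, 13.2 and 16.5 TPM in the 42 h pair, 15.0 and 15.4 TPM in the 50 h pair and 15.0 and 13.6 TPM in the 72 h pair. TET3 (ENSG00000187605, chr2:73986404-74108176, plus strand) stood at 11.6 and 9.35 TPM, then 11.9 and 11.8 TPM, 14.9 and 13.9 TPM, and 15.0 in both 72 h libraries. TET2 (ENSG00000168769, chr4:105145875-105279816, plus strand), the TET protein that lacks a CXXC DNA-binding domain of its own, was the lowest of the 3, at 2.25 and 1.93, 2.44 and 2.99, 2.86 and 3.02, and 2.52 and 2.92 TPM. The level of TET2 was higher than that of 14.5% to 20.5% of the tested genes, and those of TET1 and TET3 lay near the middle.

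TET3 rose by 0.48 ± 0.14 on the log2 scale at 72 h (95% interval 0.15 to 0.81, limma adjusted p = 0.0426), and by 0.34 within replicate 1 and 0.63 within replicate 2. This call is close to the threshold: it held in 7 of 18 alternatives, with adjusted p between 0.0397 and 0.217, and was lost with no filter (0.0642), TMM rescaling (0.0573), quantile normalization (0.0831) and the 2 time points fitted alone (0.0728), and without 34 h replicate 2 (0.217), without either 42 h library (0.0617 each), either 50 h library (0.0532 and 0.0528) or either 72 h library (0.147 each). TET1 had log2 changes of 0.36 at 42 h, 0.40 at 50 h and 0.31 at 72 h (adjusted p = 0.354, 0.188 and 0.176), and TET2 of 0.26, 0.35 and 0.27 (adjusted p = 0.667, 0.380 and 0.369), so neither passed. Of the tested genes 1764 (11.8%) had all later libraries above both 34 h libraries; among the 8 tested here these were DNMT1, UHRF1, TET1, TET2 and TET3. The opposite pattern was seen in 1375 genes (9.22%) and, among the 8, in DNMT3B.

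TDG (ENSG00000139372, chr12:103965804-103988874, plus strand), the glycosylase that acts after the TET enzymes, stood at 58.1 and 57.5 TPM in the 34 h pair, 52.7 and 55.8 TPM in the 42 h pair, 59.7 and 70.1 TPM in the 50 h pair and 61.8 and 47.1 TPM in the 72 h pair. The 72 h libraries fell on either side of the 34 h pair. Its log2 changes of -0.09, 0.16 and -0.10 at 42, 50 and 72 h did not pass (limma adjusted p = 0.879, 0.594 and 0.665). Processed pseudogenes of TDG and TET1 were listed at no more than 0.1 TPM in any library.

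By count, 1 of the 8 tested genes changed at 42 h against 34 h (DNMT3B, lower), where 2.58% of all tested genes passed (1.78% higher, 0.792% lower), and 4 had an unadjusted p under 0.05, as had 13.9% of all genes. At 50 h it was again 1 of 8 (DNMT3B), against 6.26% of all genes (3.52% higher, 2.74% lower), with 5 under 0.05 unadjusted (20.6% of all genes). At 72 h 4 of 8 changed, 3 higher (DNMT1, UHRF1, TET3) and 1 lower (DNMT3B), against 24.0% of all genes, 12.7% higher and 11.3% lower, and 4 were under 0.05 unadjusted (36.9% of all genes). Between 42 and 50 h limma called 0 of 8, with 0 under an unadjusted 0.05 (9.35% of all genes) and 0.0939% of all genes called (0.0604% higher, 0.0335% lower), and between 50 and 72 h 1 of 8 (DNMT3B, lower), against 7.33% (2.92% higher, 4.41% lower), with 2 under 0.05 unadjusted (22.4% of all genes). These comparisons share libraries and are not independent. The moderated F-test over time called DNMT3B (adjusted p = 0.000963) and UHRF1 (adjusted p = 0.0148), and 17.4% of all genes. Without 34 h replicate 2 or either 72 h library UHRF1 was not called by the F-test. The median log2 change of the 8 genes at 72 h was 0.29, against 0.06 over all tested genes.

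**Figure D2:**
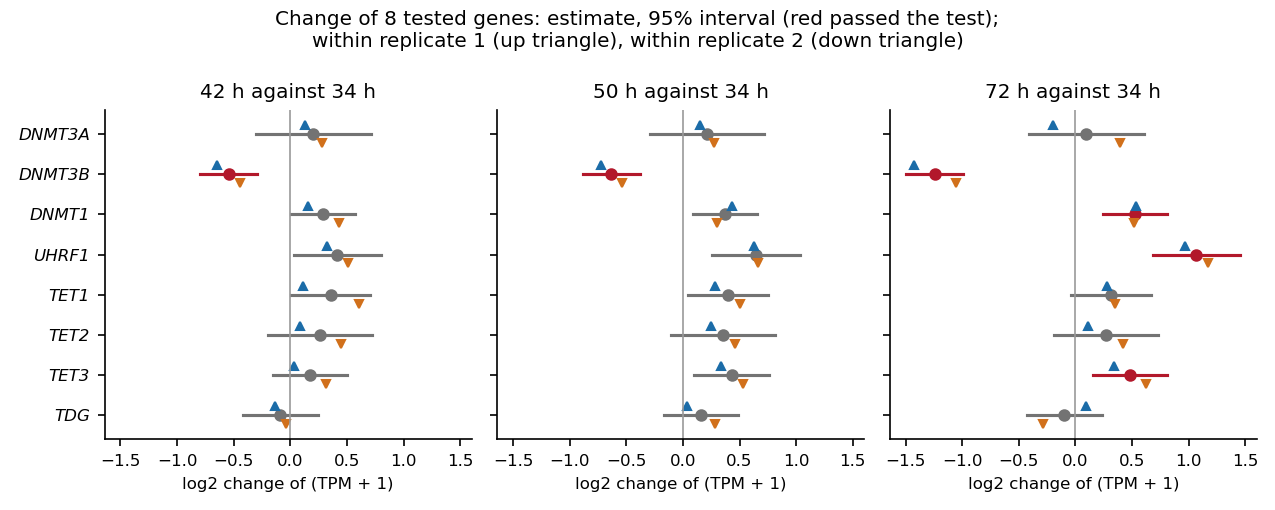
Change on the log2(TPM + 1) scale (horizontal axis) of the 8 tested genes at 42, 50 and 72 h against 34 h; circles are limma estimates from 8 libraries with 95% intervals, red where the adjusted p was under 0.05, and triangles are the changes within replicate 1 (up) and replicate 2 (down). DNMT3B is red and left of 0 at all 3 times, and UHRF1, DNMT1 and TET3 are red and right of 0 at 72 h.

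The make-up of the methyltransferase transcripts moved with these changes. TPM is scaled by length, so levels of different genes were compared. DNMT3B made up 85.0% and 87.2% of the summed DNMT3A and DNMT3B in the 34 h pair, 76.7% and 80.4% in the 42 h pair, 75.5% and 79.4% in the 50 h pair and 70.7% and 71.2% in the 72 h pair, with no overlap between 34 h and any later time. The ratio of DNMT3B to DNMT1 was 5.04 and 4.56 in the 34 h pair and 1.29 and 1.52 in the 72 h pair, and DNMT1 went from 15.2% ± 1.14 to 33.6% ± 2.49 (SD, n = 2) of all DNMT transcripts. The summed DNMT3 level had means of 587, 438, 419 and 298 TPM at 34, 42, 50 and 72 h.

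The TET sum was 26.0 and 21.8 TPM in the 34 h pair, 27.6 and 31.3 TPM in the 42 h pair, 32.8 and 32.3 TPM in the 50 h pair and 32.5 and 31.5 TPM in the 72 h pair. Its make-up changed little: TET1 held means between 44.7% and 50.2%, TET3 between 40.6% and 46.8% and TET2 between 8.51% and 9.20% at the 4 time points. The DNMT sum was 28.9 ± 0.829 times the TET sum at 34 h and 14.1 ± 0.123 times at 72 h (SD, n = 2). UHRF1 stood at 0.445 and 0.379 of DNMT1 in the 34 h pair and at 0.604 of it in both 72 h libraries. These sums and shares were not tested.

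**Figure D3:**
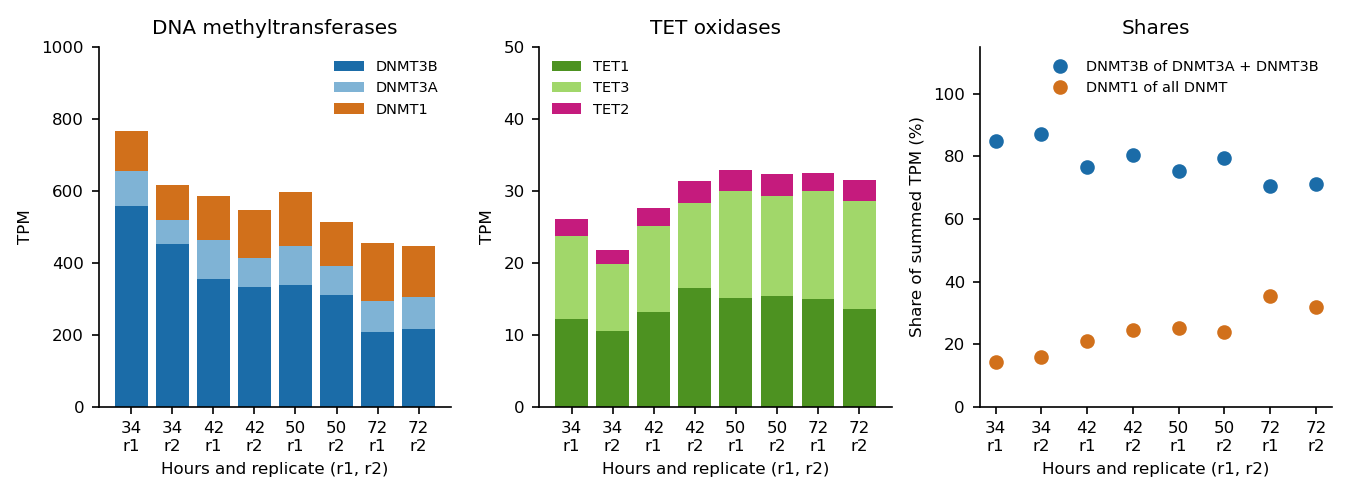
Left and centre, stacked TPM of the DNA methyltransferases and of the TET oxidases in each of the 8 libraries, by hours and replicate (r1, r2); right, in percent, the share of DNMT3B in DNMT3A plus DNMT3B and the share of DNMT1 in all DNMT. The DNMT3B share goes from 85.0% and 87.2% to 70.7% and 71.2% and the DNMT1 share from 15.2% to 33.6% in the mean.

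In order of level at 34 h, DNMT3B was followed by DNMT1, DNMT3A, TDG, UHRF1, TET1, TET3, TET2 and DNMT3L. TET1 and TET3 overlapped between libraries and the other neighbours did not, although DNMT1 in replicate 2 (98.9 TPM) and DNMT3A in replicate 1 (98.8 TPM) nearly touched. At 72 h UHRF1 came after DNMT1 and overlapped DNMT3A, and TET3 overlapped TET1. DNMT3B was the highest at both ends of the series.

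Around these 9 genes, 105 others of the pathway and the cell cycle were read, of which 90 were tested. Of these 1 changed at 42 h (1.11%, against 2.58% of all tested genes), 8 at 50 h (8.89%, 7 higher and 1 lower, against 6.26%) and 29 at 72 h (32.2%, 19 higher and 10 lower, against 24.0%). The counts for each list at 72 h below stand against 12.7% of all genes higher and 11.3% lower. The lists overlap in function and were chosen with earlier results known, so the counts describe them only. Of the 29 calls at 72 h, 11 held under every alternative.

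Among the 90 tested list genes, the only call at 42 h fell in the list of cofactors and partners of the TET enzymes. At 72 h 3 of the 9 tested genes of that list rose and 2 fell. CXXC5, a CXXC zinc finger protein that binds TET2 and is known as a responder to WNT and BMP signals, stood at 53.3 and 51.8 TPM in the 34 h pair, 152 and 130 TPM in the 42 h pair, 136 and 118 TPM in the 50 h pair and 74.8 and 80.7 TPM in the 72 h pair. Its log2 rise was 1.41 ± 0.11 at 42 h (limma adjusted p = 0.000546) and 1.25 at 50 h (adjusted p = 0.000523), and it was the only 1 of the 90 genes called at 42 h. From 50 to 72 h CXXC5 fell by 0.70 (adjusted p = 0.00947), a call lost without 72 h replicate 1 (up to 0.0862). At 72 h it was still 0.56 above 34 h (adjusted p = 0.00995), but not without 34 h replicate 2 or 72 h replicate 2 (up to 0.0692).

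CXXC4, the paralog encoded near TET2, behaved differently: it stood at 1.14 and 1.64 TPM in the 34 h pair, 0.85 and 0.72 TPM in the 42 h pair, 1.02 and 1.51 TPM in the 50 h pair and 6.18 and 5.54 TPM in the 72 h pair. It rose by 1.53 ± 0.23 at 72 h against 34 h (limma adjusted p = 0.00249), on a scale that understates changes of low genes. IDH2, which makes 2-oxoglutarate in mitochondria, stood at 60.6 and 58.8 TPM in the 34 h pair and 138 and 135 TPM in the 72 h pair and rose by 1.18 ± 0.11 (adjusted p = 0.000166). Its cytosolic counterpart IDH1 was at 211 and 224 TPM in the 34 h pair and 189 and 179 TPM in the 72 h pair. QSER1, reported to guard bivalent promoters from DNMT3 enzymes together with TET1, went from 54.8 and 48.6 TPM to 32.8 and 29.1 TPM and fell by 0.72 ± 0.13 (adjusted p = 0.00483).

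**Figure D4:**
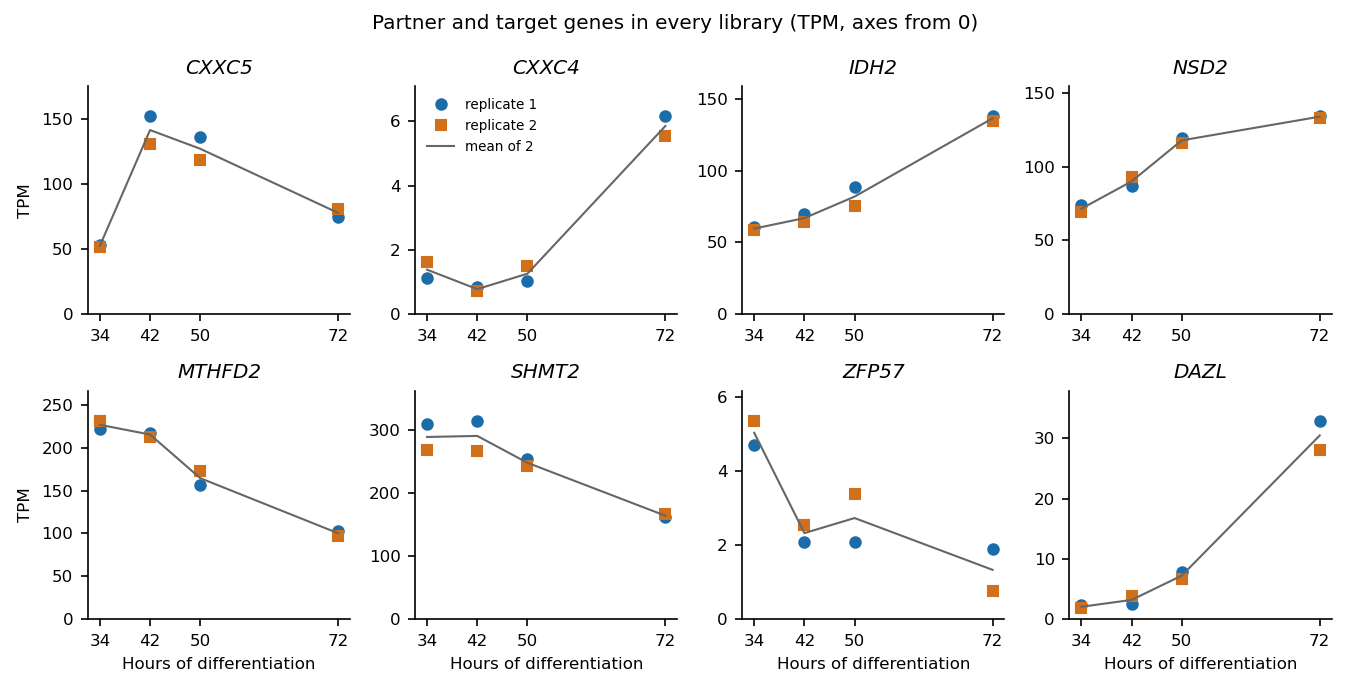
TPM (vertical axes from 0, own scale each) against hours for 8 partner, supply and target genes, with replicate 1 as circles, replicate 2 as squares and a line through the means. CXXC5 is highest at 42 h (152 and 130 TPM), IDH2, NSD2, CXXC4 and DAZL are highest at 72 h, and MTHFD2 and SHMT2 are lowest at 72 h.

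Genes that supply methyl groups through serine, folate and methionine went the other way, with 0 of 13 higher and 4 lower at 72 h and a median log2 change of -0.22. MTHFD2, the mitochondrial folate enzyme, stood at 222 and 232 TPM in the 34 h pair and 103 and 97.4 TPM in the 72 h pair and fell by 1.17 ± 0.09 in log2 units (limma adjusted p = 5.60e-05). SHMT2, which splits serine in mitochondria, went from 310 and 268 TPM to 162 and 167 TPM, a fall of 0.81 (adjusted p = 0.00131). PHGDH, the first enzyme of serine synthesis, went from 657 and 611 TPM to 365 and 388 TPM, a fall of 0.75 (adjusted p = 0.00331). MTHFD1 fell by 0.43 (adjusted p = 0.00739), a call lost without 72 h replicate 2 (0.0542). MAT2A and AHCY, which make S-adenosylmethionine and clear its product, were not called at 72 h.

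Of 9 tested histone enzymes linked to DNA methylation 1 rose and none fell at 72 h. NSD2, which places the H3K36 dimethyl mark that the PWWP domain of DNMT3A can read, stood at 73.9 and 69.1 TPM in the 34 h pair, 87.0 and 92.9 TPM in the 42 h pair, 120 and 116 TPM in the 50 h pair and 134 and 133 TPM in the 72 h pair. It rose by 0.71 ± 0.09 at 50 h (limma adjusted p = 0.00244) and by 0.90 ± 0.09 at 72 h (adjusted p = 0.000268).

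Of 11 base excision repair genes 3 rose at 72 h, the glycosylases NEIL1 (6.78 and 6.86 TPM to 10.4 and 10.7 TPM), NEIL2 (10.2 and 10.6 TPM to 16.5 and 16.7 TPM) and NEIL3 (6.38 and 6.02 TPM to 10.6 and 9.22 TPM), by 0.56, 0.63 and 0.59 in log2 units (limma adjusted p = 0.0437, 0.0119 and 0.0352). Each of these calls was lost when any 1 of the 34 h or 72 h libraries was left out (adjusted p up to 0.163, 0.0657 and 0.175). The NEIL1 call held in 8 of 18 alternatives and was also lost with the replicate block (0.0510), no filter (0.0827), TMM (0.0594), quantile scaling (0.0755) and without either 42 h library, and that of NEIL3 with no filter (0.0693) and quantile scaling (0.0535). Of 10 methyl-CpG readers MBD2 and MBD6 rose, by 0.49 and 0.46 (adjusted p = 0.0161 and 0.0400), and both calls were likewise lost without any 1 of those libraries (up to 0.103 and 0.158); that of MBD6 held in 8 of 18 alternatives. Of the 9 tested partners and protectors of maintained methylation none rose, and ZFP57, which guards imprinted regions, fell from 4.71 and 5.37 TPM to 1.91 and 0.76 TPM, by 1.42 ± 0.29 (adjusted p = 0.0105). ZFP57 is the sum of 3 rows of the table. With its highest row alone the log2 change was -0.41 (adjusted p = 0.455), and its call was also lost without 34 h replicate 2 (0.0666) or 72 h replicate 2 (0.0628).

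Most genes of the germline list, whose promoters are known to be silenced by DNA methylation in somatic cells, were low: 14 of 16 missed the filter of 1 TPM, of which 4 were listed at 0 in all 8 libraries. DAZL, an RNA-binding protein of germ cells, was one of the 2 that passed it, at 2.28 and 1.81 TPM in the 34 h pair, 2.51 and 3.85 TPM in the 42 h pair, 7.74 and 6.69 TPM in the 50 h pair and 33.0 and 28.0 TPM in the 72 h pair. Its log2 rise was 1.43 ± 0.21 at 50 h (limma adjusted p = 0.00523) and 3.37 ± 0.21 at 72 h (adjusted p = 2.21e-05), and the latter call held in 18 of 18 alternatives. DAZL has close relatives of the DAZ family, and how reads were shared among them is not given in the sources used here. GTSF1, the other tested gene, was at 1.79 and 2.11 TPM in the 34 h pair and 1.07 and 0.32 TPM in the 72 h pair and was not called. DNA methylation at these genes was not measured.

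**Figure D5:**
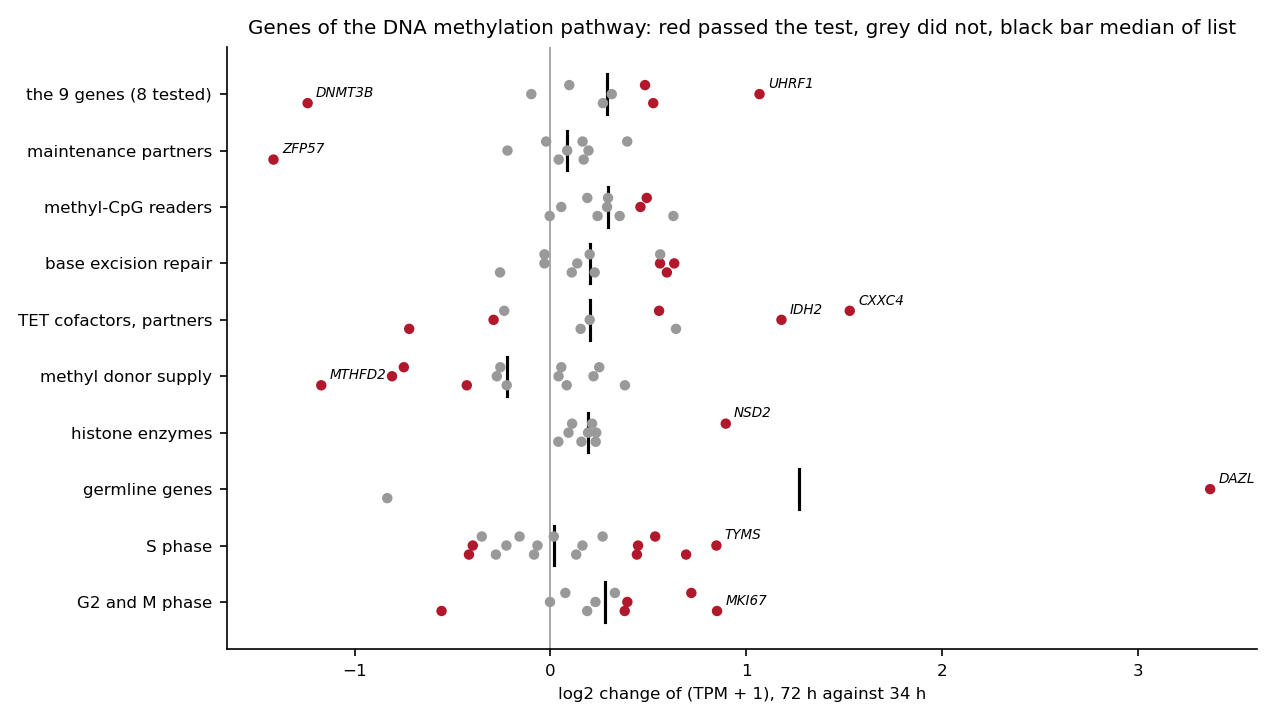
Change at 72 h against 34 h on the log2(TPM + 1) scale (horizontal axis) of each tested gene, one point per gene, by list; red points had an adjusted p under 0.05, grey did not, and the black bar is the median of the list. The medians lie at 0.29 for the genes reported here and -0.22 for methyl donor supply, and DAZL lies furthest right at 3.37.

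The cell cycle lists split. Of 17 S phase genes 5 rose and 2 fell at 72 h, with a median log2 change of 0.02. TYMS, which makes thymidylate, went from 140 and 145 TPM to 262 and 252 TPM (0.85 ± 0.09, limma adjusted p = 0.000333) and E2F1, a driver of S phase genes, from 24.0 and 22.7 TPM to 38.3 and 38.2 TPM (0.69, adjusted p = 0.0109; lost without 34 h replicate 2 or either 72 h library, up to 0.0649). CHAF1B rose by 0.54 (adjusted p = 0.0221; lost without 34 h replicate 2 or either 72 h library, up to 0.126). MCM5 fell by 0.40 (adjusted p = 0.0221) and CDC6 by 0.42 (adjusted p = 0.0192). MCM5 was not called without either 34 h library or 72 h replicate 1 (up to 0.139), nor CDC6 without either 34 h library or 72 h replicate 2 (up to 0.128). Of 10 genes of G2 and M phase 4 rose and 1 fell, MKI67 from a mean of 40.4 to 73.7 TPM (0.85, adjusted p = 0.00125) and BUB1 from a mean of 173 to 117 TPM (a fall of 0.56, adjusted p = 0.00354). The MKI67 call held in 18 of 18 alternatives. The other raised genes, CENPE, TOP2A and UBE2C, were called in 13, 7 and 17 of 18, and each was lost without 72 h replicate 2.

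The profile most like that of DNMT3B over the 8 libraries was that of CCN1, a secreted matrix protein (means of 38.7, 22.2, 20.3 and 12.1 TPM, Pearson r = 0.988 on log2 values), followed by GAS6 (r = 0.988) and PCDH1 (r = 0.988). For UHRF1 these were the protocadherin PCDHGA11 (3.84, 5.50, 7.80 and 11.3 TPM, r = 0.992), LRRC3 (r = 0.992) and C1orf198 (r = 0.991). The points of each correlation share 4 time points and 2 replicates, and the genes were picked as the highest of all tested.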

How the data were processed

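Poly(A) RNA was read as paired ends in 8 libraries. The authors deposited TPM per Ensembl gene in 1 table of 37951 rows; the submitters' processing notes name Salmon 1.9.0 and GRCh38, with no order or settings. Each column sums to 1000000, so depth is unknown. Rows with the same symbol (1034 symbols) were summed; each of the 9 genes has 1 row. The 14908 genes reaching 1 TPM in 2 or more libraries were tested on log2(TPM + 1), computed here from the deposited TPM, with limma 3.58.1 in R 4.3.3: 1 mean per time point over all 8 libraries, a variance trend, 5 contrasts, two-sided, and Benjamini-Hochberg adjustment over all tested genes with a threshold of 0.05. The script was tested on simulated data. With 2 libraries a group, exact permutation reaches no p below 0.333 and was not used. P-values test differences of means against the spread between these libraries, moderated towards a variance trend over all tested genes.

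The genes, lists, motifs and tests were chosen with earlier results of these data known. Named are the 9 genes, for those called by the F-test the 3 genes with the highest Pearson correlation, and up to 4 called genes of each list with the largest change at 72 h, plus others a result turns on; IDH1, MAT2A, AHCY, BUB1, MCM5, CDC6 and CHAF1B were added for context. Positions are GENCODE 29 on GRCh38.

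Libraries are paired by the batch label. Replicate differences correlated across genes at 0.0949 (34 and 42 h), 0.195 (34 and 50 h) and 0.142 (42 and 50 h), and at -0.0445, -0.0779 and -0.104 between 72 h and 34, 42 and 50 h. Alternatives were another pseudocount, other filters, TMM and quantile scaling, removal of mitochondrial genes, no variance trend, a replicate block, rows kept apart, time points fitted alone and each library left out.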

Additional observations from a re-analysis of the deposited data

How the results depend on the processing

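The 72 h calls of DNMT3B and UHRF1 against 34 h held under all 18 alternatives. The number of the 9 genes called at 42 h (1) was 0 with no filter, no variance trend, rows taken apart or the compared times fitted alone, and 0 to 1 without 1 library. At 50 h (1) it was 2 with a mean of at least 5 TPM, 2 with the replicate block (UHRF1 joined, adjusted p = 0.0108), 0 with no variance trend or the times alone, and 0 to 1 without 1 library. At 72 h against 34 h (4) it was 2 to 4 without 1 library; from 50 to 72 h (1) 0 with no variance trend and 0 to 1 without 1 library; by the F-test (2) 1 to 3 without 1 library. The replicate block changed no other call of the 9 genes. Of the list genes called it lost NEIL1 at 72 h (adjusted p = 0.0510), MKI67 at 50 h (0.0510) and, from 50 to 72 h, CDC6 (0.0502) and MTHFD1 (0.0534). With the block the list counts were 8 at 50 h, 30 at 72 h and 12 from 50 to 72 h, so list calls were also gained at 50 and 72 h. List genes called at 50 h (8) were 5 with TMM, 3 with no variance trend, 3 with the times alone and 3 to 7 without 1 library; at 72 h (29) 12 to 29 without 1 library; from 50 to 72 h (14) 7 with no variance trend, 8 with the times alone and 2 to 12 without 1 library. The alternatives for single list genes, unlike these counts, were added after seeing the data. With fewer libraries or times the fits have fewer residual degrees of freedom; the cause of the other losses was not tested. Without mitochondrial genes the DNMT3 sum was 489, 462 and 333 TPM at 42, 50 and 72 h and the TET sum 32.9, 36.0 and 35.7 TPM, the remaining genes being rescaled to the same total; with TMM the TET sum at 50 h was 32.2 TPM. Signs turned only for changes that had passed no test. Leaving out 1 library, DNMT3A ranged from -0.078 to 0.486 at 42 h, from -0.071 to 0.493 at 50 h and from -0.186 to 0.378 at 72 h, in each case from without 34 h replicate 2 to without 34 h replicate 1, with -0.010 at 50 h without 50 h replicate 1. For the step from 42 to 50 h DNMT3A ranged from -0.215 (without 50 h replicate 1) to 0.227, with -0.197 without 42 h replicate 2, and stood at -0.0238 with TMM, -0.0304 with quantile scaling and -0.0089 without mitochondrial genes. For the step from 50 to 72 h it ranged from -0.335 to 0.106 (without 50 h replicate 1). From 42 to 50 h DNMT1 ranged from -0.0663 (without 50 h replicate 1) to 0.219, TET1 from -0.112 and TET2 from -0.0197 (both without 42 h replicate 1) to 0.194 and 0.195. TDG at 72 h ranged from -0.291 to 0.095 (without 72 h replicate 2).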
